A study of Mus musculus with 6 samples.

Results

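Wnt ligands and the genes that feed back on Wnt signalling were followed across 6 Affymetrix mouse expression arrays. The genes are the ligands Wnt3, Wnt3a, Wnt5a, Wnt5b and Wnt8a, the inhibitors Dkk1 and Apcdd1, and the pathway targets Axin2, Lef1 and Sp5. Every probe set (a group of array probes summarised to 1 value) whose platform annotation gives exactly 1 of these symbols was taken. That gave 22 of the 45101 probe sets on the array, or 22 of the 34945 with 1 gene symbol that were tested. Wnt3, Wnt3a, Wnt8a and Sp5 had 1 probe set each, Wnt5b, Dkk1, Axin2 and Lef1 had 2 each, Wnt5a had 4 and Apcdd1 had 6.

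The cells were a mouse embryonic stem (ES) cell line, ER71 A17C, of 129P2/Ola background, that carries an Etv2 cassette switched on by doxycycline (ER71 A2Lox.cre). All 6 samples share this line and cassette, and a doxycycline-treated line without the cassette was not analysed here, so effects of doxycycline and of Etv2 cannot be told apart. Etv2 is an ETS-family transcription factor of the endothelial and blood lineages. The 3 induced samples received 0.5 microg/ml doxycycline for 12 hours from day 3 of differentiation as embryoid bodies, and the 3 control samples are untreated in the series' design text, although their treatment field carries the doxycycline text as well. Flk1-positive cells were sorted at day 3.5 in both groups. Flk1 is the protein of Kdr, a VEGF receptor of early mesoderm. Whether the replicates came from separate cultures is not labelled, so the p-values cover the spread among these 6 samples and part of it may be technical. The values are log2 expression levels, so 1 unit is a doubling.

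Wnt proteins bind Frizzled receptors and the co-receptors Lrp5 and Lrp6. In the canonical branch this stabilises beta-catenin, which joins TCF and LEF factors on DNA and switches on target genes. Several of those targets damp the signal again. In the mouse embryo Wnt3 is needed to form the primitive streak, from which mesoderm arises, and Wnt3a maintains the later posterior mesoderm.

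Etv2 stood at 13.27, 13.28 and 13.36 in induced samples 1, 2 and 3, against 9.92, 8.59 and 10.71 in control samples 1, 2 and 3, a log2 fold change of 3.56 ± 0.46 (SE), so every sample fitted its label. That difference did not pass the adjusted threshold across all probe sets either (limma adjusted p = 0.837). Kdr stood at 9.56, 9.36 and 10.52 in induced samples, against 10.02, 8.40 and 10.97 in control samples. Sample 2 was lowest and sample 3 highest for Kdr in both groups. The early mesoderm marker Mixl1 stood at 13.48 ± 0.12 in induced and 13.47 ± 0.29 in control samples (SD, n = 3 each), and Eomes at 13.43 ± 0.058 in induced and 13.53 ± 0.17 in control samples.

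No probe set of the Wnt ligands and feedback targets differed between induced and control samples beyond the spread between replicates by the adjusted test. In limma with Benjamini-Hochberg adjustment over all 34945 probe sets, 0 of the 22 passed an adjusted p of 0.05, and the smallest adjusted p among them was 0.9997. The background was 0.00286% of all probe sets, which is 1 probe set, of the housekeeping gene Hprt (log2 fold change 1.57, adjusted p = 0.0265). At an unadjusted p under 0.05 there was 1 of 22, an Apcdd1 probe set, against 1.51% of all probe sets. Positive log2 fold changes (induced minus control) were found in 8 of 22, with a median of -0.03, beside 50.9% and 0.0023 over all probe sets. Without control 2 the median was -0.25 and 5 of 22 had an unadjusted p under 0.05, all lower in induced samples (both Wnt5b, 1 of 2 for Dkk1, 1 of 2 for Lef1, and Sp5), with a smallest adjusted p of 0.976. Over all probe sets 1.87% were lower and 2.38% higher at that level in the same fit. Control 2 was the lowest array for 15 of 22 members, so leaving it out raises their control mean. Without control 3 the shift went the other way, with a median of 0.12 and 17 of 22 positive. There 2 of 22 had an unadjusted limma p under 0.05, both higher and both of Apcdd1. Over all probe sets 271 of 34945 were higher at that level and 302 lower. In bulk samples such as these, fewer cells of a type and less RNA per cell cannot be told apart.

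**Figure D1:**
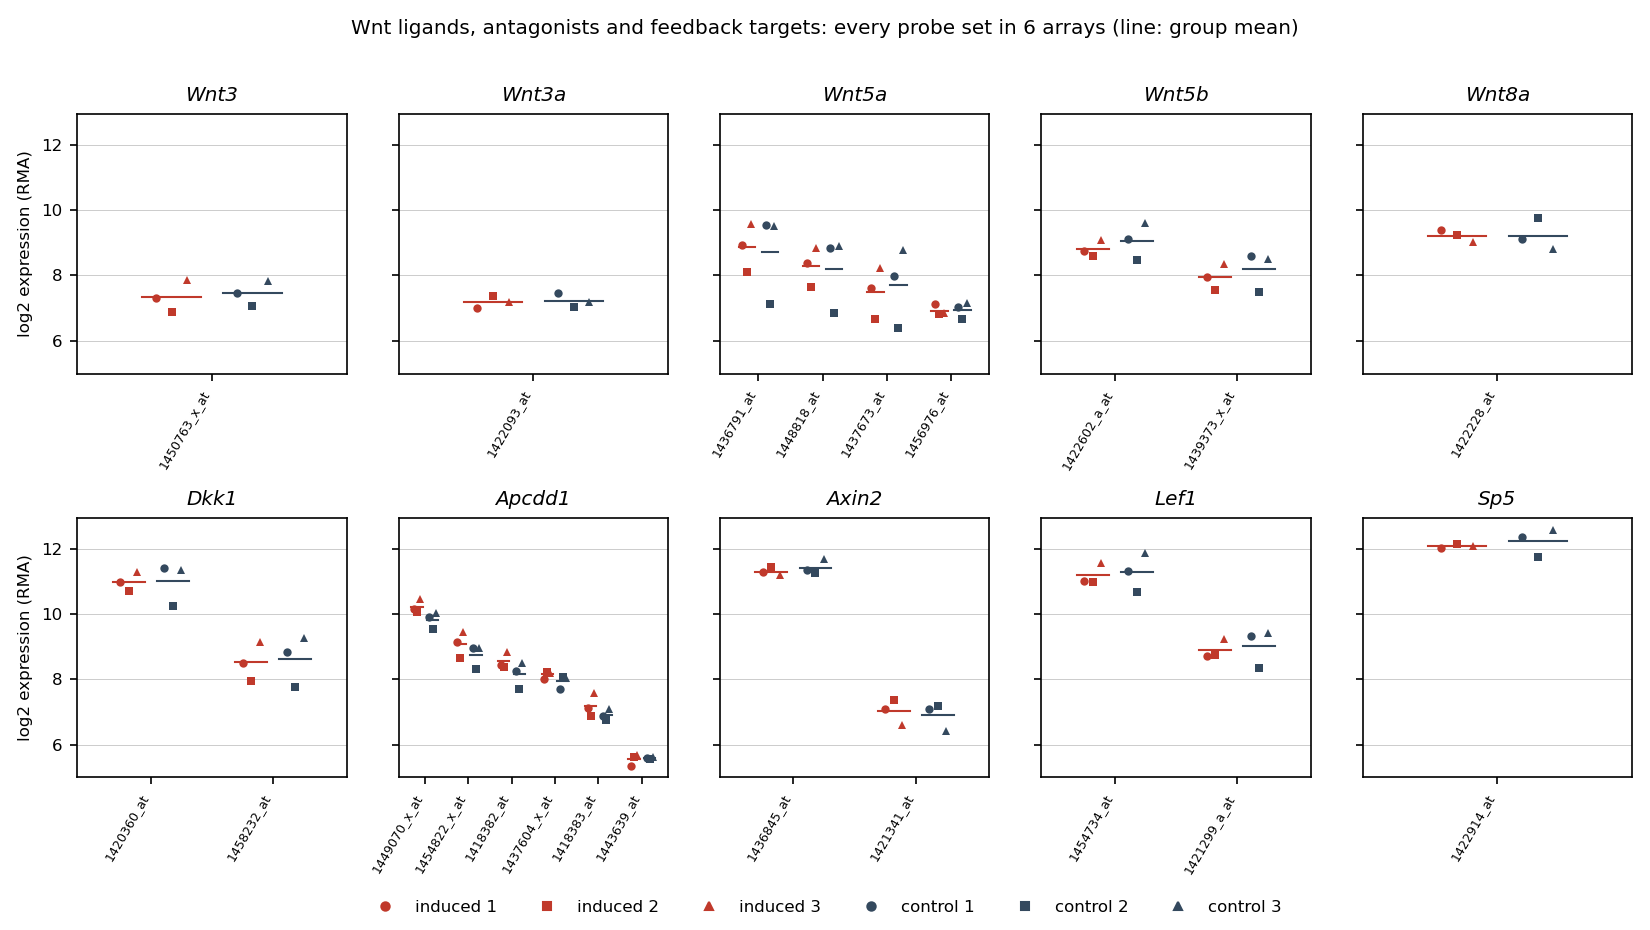
Log2 expression of each of the 22 probe sets (x axis, by gene) in the 3 induced (red) and 3 control (dark) arrays, with a marker shape for each replicate number and a line at each group mean. Induced and control points overlap in all panels except 1 Apcdd1 probe set, 1449070_x_at, and the square of replicate 2 lies below the other replicates for most Wnt5a, Wnt5b, Dkk1 and Lef1 probe sets.

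Among the ligands, Wnt5a varied most between the arrays. Wnt5a acts mainly through branches that do not use beta-catenin and helps the body axis to lengthen. Its probe set 1436791_at read 8.93, 8.09 and 9.58 in induced samples 1, 2 and 3, against 9.53, 7.13 and 9.52 in control samples 1, 2 and 3. Control 2 was the lowest of the 6 and induced 2 the next, and the groups overlapped. The log2 fold change was 0.14 ± 0.67 (SE), with a 95% interval of -1.41 to 1.69 in the fit that does not pair the replicate numbers. That interval holds changes of 1 log2 unit in either direction. With the replicate number as a block in limma the SE was 0.27 and the interval -0.51 to 0.79, which holds neither. Probe set 1448818_at read 8.39, 7.65 and 8.83 in induced samples, against 8.84, 6.84 and 8.89 in control samples. It gave 0.10 ± 0.56 and moved with 1436791_at over the 6 arrays (r = 0.999, a description). Probe set 1437673_at read 7.62, 6.66 and 8.21 in induced samples, against 7.97, 6.37 and 8.78 in control samples. It had the same order of samples within each group as Kdr. The remaining Wnt5a probe set, 1456976_at, ranged over 0.49 log2 units, against 2.06 to 2.45 for the other 3. It read 7.11, 6.80 and 6.84 in induced samples, against 7.03, 6.65 and 7.14 in control samples.

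Wnt5b, the close relative of Wnt5a, read 8.74, 8.60 and 9.07 in induced samples 1, 2 and 3 with probe set 1422602_a_at, against 9.12, 8.46 and 9.61 in control samples 1, 2 and 3. Induced samples 1 and 3 lay below the control of the same number and induced 2 lay above it. The log2 fold change was -0.26 ± 0.27 (SE), and that of 1439373_x_at was -0.24 ± 0.32. That probe set read 7.94, 7.56 and 8.36 in induced samples, against 8.59, 7.47 and 8.51 in control samples, in the same pattern within the numbers. Wnt3 has a single probe set, 1450763_x_at, whose suffix marks probes that may also bind other transcripts. It read 7.29, 6.86 and 7.85 in induced samples, against 7.47, 7.07 and 7.81 in control samples. The order of the replicate numbers was the same in both groups, and the log2 fold change was -0.12 ± 0.27.

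Wnt3a and Wnt8a did not follow that order. Wnt3a read 7.01, 7.38 and 7.19 in induced samples, against 7.45, 7.02 and 7.19 in control samples, a log2 fold change of -0.03 ± 0.14 (SE). Induced 1 was its lowest array and control 1 its highest, and all 6 lay within 0.44 log2 units. Wnt8a, a ligand of the early primitive streak region, read 9.38, 9.24 and 9.01 in induced samples, against 9.10, 9.75 and 8.81 in control samples. Control 2, lowest for Kdr, was highest for Wnt8a, and sample 3 was lowest in each group. Its log2 fold change was -0.01 ± 0.23.

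The 5 promoters below belong to genes whose levels are compared here, and are shown because TCF/LEF sites are the route by which the canonical branch reaches its targets. They are RefSeq windows on GRCm38.p6, from 250 bases before to 50 bases after an annotated start, and windows were found for 7 of the 10 genes. Both strands were searched for CTTTGAT and CTTTGAA, letters bound by TCF/LEF factors, and for the ETS letters CCGGAAG. Capitals mark a match, and a sequence wholly in lower case has none.
Sp5 chr2:70474673-70474972, strand +: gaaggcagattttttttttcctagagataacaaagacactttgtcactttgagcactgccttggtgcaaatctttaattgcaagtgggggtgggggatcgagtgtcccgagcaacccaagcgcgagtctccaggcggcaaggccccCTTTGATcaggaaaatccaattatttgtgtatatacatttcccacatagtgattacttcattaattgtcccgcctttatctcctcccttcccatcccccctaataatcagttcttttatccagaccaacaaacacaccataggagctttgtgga
Dkk1 chr19:30549447-30549746, strand -: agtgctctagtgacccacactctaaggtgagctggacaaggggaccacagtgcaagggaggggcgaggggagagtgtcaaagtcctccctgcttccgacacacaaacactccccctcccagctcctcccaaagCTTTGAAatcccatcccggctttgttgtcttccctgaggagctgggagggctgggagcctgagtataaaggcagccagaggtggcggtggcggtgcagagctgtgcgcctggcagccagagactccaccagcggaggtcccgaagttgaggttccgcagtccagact
Wnt5b chr6:119449337-119449636, strand -: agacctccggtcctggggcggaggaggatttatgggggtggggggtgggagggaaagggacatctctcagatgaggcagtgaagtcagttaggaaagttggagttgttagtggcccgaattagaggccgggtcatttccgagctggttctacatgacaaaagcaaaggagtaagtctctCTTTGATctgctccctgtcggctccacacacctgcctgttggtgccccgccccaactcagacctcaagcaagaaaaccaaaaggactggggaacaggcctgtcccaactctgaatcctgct
Lef1 chr3:131110047-131110346, strand +: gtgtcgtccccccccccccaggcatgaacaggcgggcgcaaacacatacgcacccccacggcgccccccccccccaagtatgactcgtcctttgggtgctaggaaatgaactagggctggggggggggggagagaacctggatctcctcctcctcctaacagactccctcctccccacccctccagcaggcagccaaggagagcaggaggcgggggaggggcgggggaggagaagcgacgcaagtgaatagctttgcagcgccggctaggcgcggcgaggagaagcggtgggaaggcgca
Axin2 chr11:108920099-108920398, strand +: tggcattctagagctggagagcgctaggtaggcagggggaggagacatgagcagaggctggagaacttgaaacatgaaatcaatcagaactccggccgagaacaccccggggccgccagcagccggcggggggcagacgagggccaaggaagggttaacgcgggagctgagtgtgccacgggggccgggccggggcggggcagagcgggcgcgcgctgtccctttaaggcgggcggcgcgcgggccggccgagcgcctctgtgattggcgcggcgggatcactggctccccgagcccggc

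Sp5 holds CTTTGAT starting 104 bases before its start, Wnt5b holds it 71 bases before 1 of its 3 starts, and Dkk1 holds CTTTGAA 117 bases before its start. Of all 32851 windows held, 8.65% have 1 of the 2 TCF/LEF words, and 3 of the 12 member windows did. The Axin2 window and all 4 Lef1 windows held neither within these 300 bases. CCGGAAG was found in 0 of 12, against 8.86% of all windows. A match is a run of letters and not a measured binding site.

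Among the inhibitors, Apcdd1 had a higher mean in the induced samples by 5 of its 6 probe sets, none of which passed the adjusted test. Apcdd1 is a membrane protein that inhibits Wnt signalling and is itself induced by it. Probe set 1449070_x_at read 10.15, 10.05 and 10.45 in induced samples 1, 2 and 3, against 9.90, 9.53 and 10.04 in control samples 1, 2 and 3. All 3 induced samples lay above all 3 control samples, though induced 2 and control 3 were only just apart. Its log2 fold change of 0.39 ± 0.16 (SE) equals 1.31-fold, and the 95% interval ran from 0.03 to 0.76 (limma adjusted p = 0.9997). An exact permutation test of 3 against 3 samples cannot go below a two-sided p of 0.1, which these values gave. It was the 1 probe set of 22 whose groups did not overlap with induced higher, against 2.67% of all probe sets, and 0 of 22 were non-overlapping with induced lower, against 3.79%. With the arrays centred on their medians the groups of 1449070_x_at overlapped. Its log2 fold change was then 0.38, with a limma 95% interval of -0.0034 to 0.75.

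The other Apcdd1 probe sets differed in how far they followed it. Probe set 1418382_at read 8.43, 8.37 and 8.85 in induced samples, against 8.26, 7.71 and 8.49 in control samples. Probe set 1454822_x_at read 9.14, 8.66 and 9.45 in induced samples, against 8.95, 8.32 and 8.94 in control samples. In both, control 2 was the lowest of the 6 and induced 3 the highest. The log2 fold changes were 0.40 ± 0.21 (SE) for 1418382_at, 0.35 ± 0.24 for 1454822_x_at, 0.28 ± 0.18 for 1418383_at and 0.20 ± 0.12 for 1437604_x_at. The first 3 of these correlated with 1449070_x_at over the arrays at r = 0.91 to 0.98, and 1437604_x_at at 0.33. Probe set 1418383_at read 7.13, 6.88 and 7.57 in induced samples, against 6.89, 6.74 and 7.10 in control samples. Probe set 1437604_x_at read 8.02, 8.23 and 8.20 in induced samples, against 7.71, 8.08 and 8.05 in control samples. The last one, 1443639_at, read 5.35, 5.61 and 5.67 in induced samples, against 5.57, 5.56 and 5.62 in control samples. It was dim, with a mean of 5.56 at percentile 15.1 of all probe sets. It gave -0.04 ± 0.10 and ranged over 0.32 log2 units, near the median range of all probe sets, 0.33. Within the replicate numbers, 5 of the 6 Apcdd1 probe sets were higher in 3 of 3 induced samples, and these were the only 5 of the 22 that were. Over all probe sets 9.72% were higher in 3 of 3 pairs. Probe sets of 1 gene read the same transcripts in the same arrays, so they are not separate evidence.

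With the replicate number as a block in limma, the same 5 Apcdd1 probe sets had an unadjusted p under 0.05, from 0.0043 for 1449070_x_at to 0.0498 for 1437604_x_at. That was 5 of 22, against 1.08% of all probe sets higher at that level, and 0 of 22 passed after adjustment (smallest adjusted p = 0.998). The sizes depended on single samples. Without control 2 the log2 fold change was 0.25 for 1449070_x_at, 0.18 for 1418382_at and 0.14 for 1454822_x_at. Without induced 3 it was 0.09 for 1418383_at, and without control 1 it was 0.08 for 1437604_x_at.

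Dkk1, a secreted inhibitor that binds the Lrp co-receptors, showed no such shift. Its probe set 1420360_at read 10.97, 10.71 and 11.29 in induced samples 1, 2 and 3, against 11.40, 10.25 and 11.35 in control samples 1, 2 and 3. Sample 2 was lowest in each group, and the control values spread over more than the induced ones. The log2 fold change was -0.01 ± 0.31 (SE), with a 95% interval of -0.73 to 0.71. With the replicate number as a block in limma the interval was -0.41 to 0.39. The second probe set, 1458232_at, read 8.49, 7.95 and 9.14 in induced samples, against 8.82, 7.77 and 9.26 in control samples. It gave -0.09 ± 0.41, and the pair correlated over the arrays at 0.93.

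**Figure D2:**
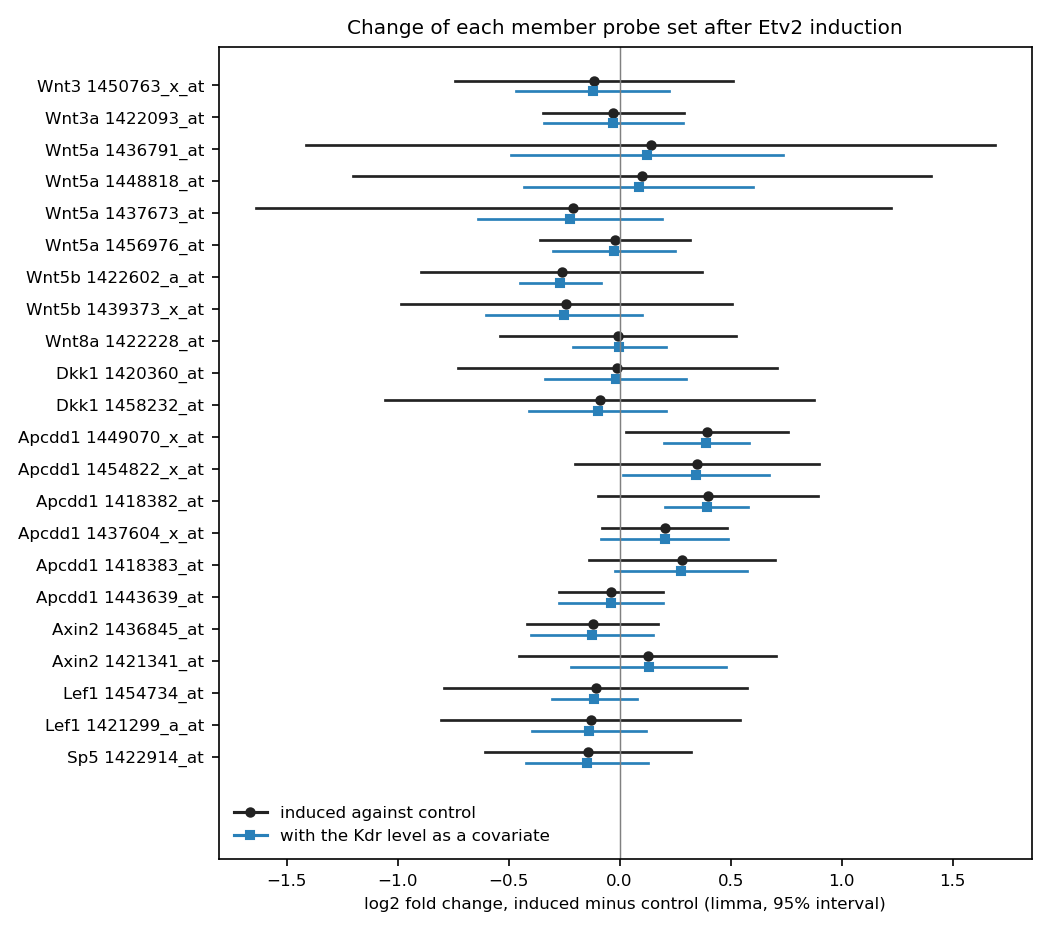
Log2 fold change (x axis, induced minus control, limma with 95% intervals) for each of the 22 probe sets, in black for the plain comparison and in blue with the Kdr level as a covariate. The black intervals include 0 for all but Apcdd1 1449070_x_at, and the blue ones are narrower for Wnt5a, Wnt5b, Dkk1 and Lef1 with nearly the same centres. Kdr had nearly equal group means, so the centres could hardly move.

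Among the direct targets, Lef1, which encodes a DNA-binding partner of beta-catenin, read 11.02, 10.98 and 11.56 in induced samples 1, 2 and 3 with probe set 1454734_at. The control samples read 11.32, 10.69 and 11.87. Sample 3 was highest and sample 2 lowest in each group, as for Kdr. The log2 fold change was -0.11 ± 0.29 (SE), and 1421299_a_at, which read 8.72, 8.73 and 9.24 in induced samples against 9.33, 8.34 and 9.41 in control samples, gave -0.13 ± 0.29. Sp5, a zinc-finger factor among the most direct Wnt targets, read 12.02, 12.15 and 12.08 in induced samples, against 12.36, 11.73 and 12.58 in control samples. The induced samples had an SD of 0.062 (n = 3) and lay inside the range of the control samples, whose SD was 0.44. The log2 fold change of Sp5 was -0.14 ± 0.20.

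Axin2, a scaffold of the complex that destroys beta-catenin and a widely used readout of the pathway, was the steadiest of the targets in its probe set 1436845_at. It read 11.27, 11.43 and 11.19 in induced samples, against 11.34, 11.25 and 11.67 in control samples. The groups overlapped and the log2 fold change was -0.12 ± 0.13 (SE). Its 95% interval of -0.42 to 0.17 bounded it more tightly than for Lef1 or Dkk1 in the same unpaired fit. With the replicate number as a block that advantage held only in part. The interval there was -0.45 to 0.21 for 1436845_at. It was tighter than for Lef1 1421299_a_at (-0.57 to 0.31) and Dkk1 1420360_at (-0.41 to 0.39). It was much like that of Lef1 1454734_at (-0.44 to 0.23) and wider than that of Dkk1 1458232_at (-0.37 to 0.19). The other Axin2 probe set, 1421341_at, read 7.08, 7.38 and 6.61 in induced samples, against 7.09, 7.17 and 6.42 in control samples. It was lowest in sample 3 of each group, and the pair correlated at -0.35 over the arrays, so the Axin2 probe sets disagree. Which of them follows the Axin2 transcript was not tested.

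The members varied more between samples of a group than most probe sets. Their median range over the 6 arrays was 1.02 log2 units, beside 0.33 over all probe sets, and their median SD was 0.29 in induced and 0.43 in control samples, beside 0.12 in induced and 0.11 in control samples over all probe sets. The control SD exceeded the induced SD in 18 of 22 members and in 48.1% of all probe sets. Control 2 was the lowest of the 6 arrays for 15 of 22 members, beside 15.3% of all probe sets.

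For many members the order of the replicate numbers was the same in both groups. Replicate 2 was lowest in both groups for 14 of 22 members, against 15.5% of all probe sets. These were Wnt3, all 4 Wnt5a, both Wnt5b and both Dkk1 probe sets, 1 of 2 for Lef1 and 4 of 6 for Apcdd1. In limma's F-test of the replicate number, added after the data were seen, 15 of 22 members had an unadjusted p under 0.05, against 8.66% of all probe sets. After adjustment 0 of 22 passed, against 0.0% of all, and the smallest adjusted p among members was 0.277, for Wnt5a 1437673_at. Within the numbers, the median member was -0.26 in induced 1 minus control 1, 0.25 in induced 2 minus control 2 and -0.03 in induced 3 minus control 3. Kdr differed by -0.46, 0.96 and -0.45 in the same pairs. No member was lower in 3 of 3 pairs, against 13.8% of all probe sets.

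**Figure D3:**
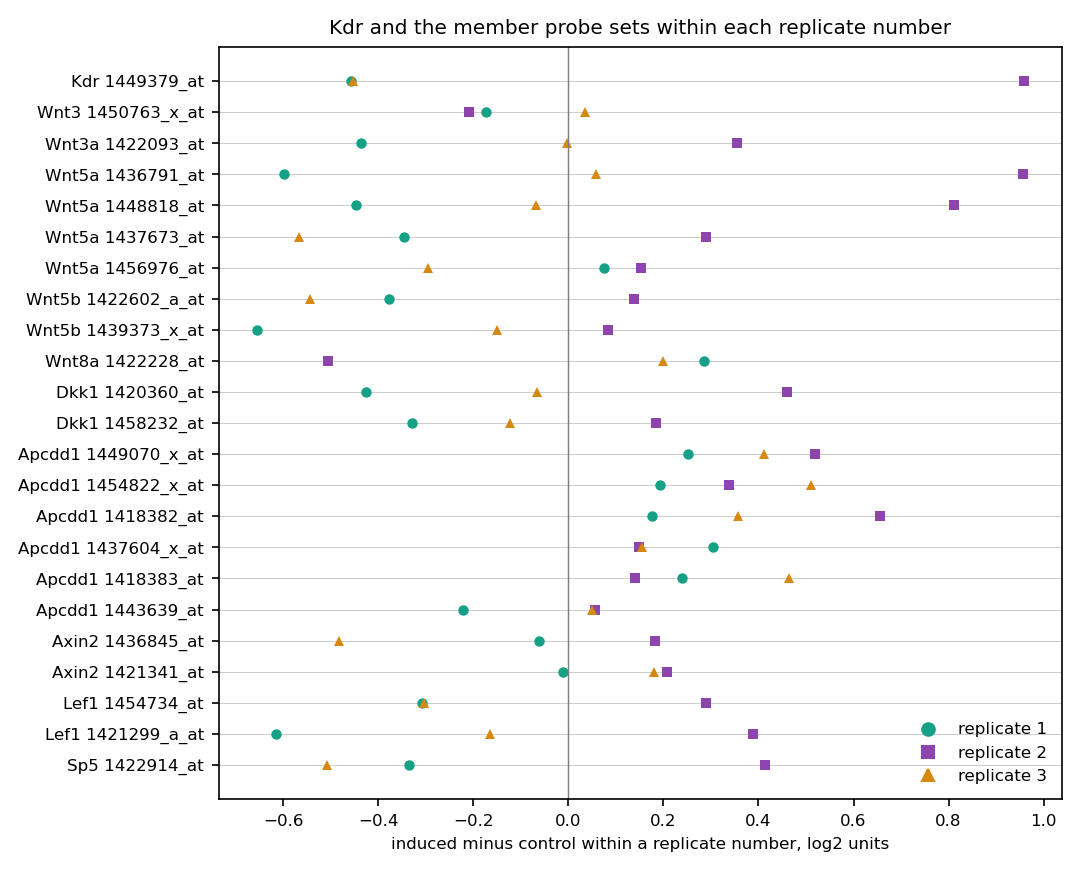
Induced minus control within each replicate number (x axis, log2 units) for Kdr and the 22 probe sets, with 1 marker per replicate number. For Kdr, Wnt5b, Dkk1, Lef1 and Sp5 replicate 2 lies right of 0 and replicates 1 and 3 left of it, while 5 Apcdd1 probe sets have all 3 markers right of 0.

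Across the 6 arrays most members varied in the same direction as Kdr, the gene of the sorted protein. Pearson's r with Kdr was positive for 19 of 22 members and its median was 0.82, beside 0.016 over all probe sets. For 13 of 22 the two-sided exact permutation p was under 0.05, against 11.2% of all probe sets, out of 22 relations computed. Among the 13, Wnt8a and Axin2 1421341_at had a negative r. The rest were probe sets of Wnt3, Wnt5a, Wnt5b, Dkk1, Lef1 and Sp5, and several probe sets of 1 gene are not separate relations. Adjusted over all probe sets 0 of 22 passed, with a smallest adjusted p of 0.212, and 720 pairings of 6 arrays allow no p below 0.0028. These permutations shuffle all 6 arrays freely and take no account of the replicate numbers, which Kdr follows in both groups, so the p-values describe 6 arrays treated as independent. Kdr was chosen for this comparison with earlier results of these data known, so the count is not independent evidence.

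Lef1 1454734_at was closest to Kdr, with r = 0.98 (exact permutation p = 0.0028, adjusted 0.212) and rho = 1.00 (p = 0.0028). Without the 2 samples farthest from the median Kdr level, controls 2 and 3, r was 0.99. Wnt5a 1437673_at had r = 0.96 and Dkk1 1458232_at r = 0.96 (exact permutation p = 0.0028 and rho = 1.00 for both), and without those samples r was 0.88 and 0.95. Wnt5b 1422602_a_at had r = 0.93 (exact permutation p = 0.0056; rho = 0.94, p = 0.0167) and 0.88 without them. Wnt3 had r = 0.86 and rho = 0.89 (exact permutation p = 0.033 for each), and 0.96 without them.

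Wnt8a ran the other way, with r = -0.97 (exact permutation p = 0.0056; rho = -0.94, p = 0.0167) and -0.85 without controls 2 and 3. Sp5 had r = 0.84 (exact permutation p = 0.044; rho = 0.71, p = 0.14), which was 0.11 without those samples, so its relation rests on them. The Axin2 probe sets again disagreed, 1436845_at with r = 0.47 (exact permutation p = 0.33; rho = 0.26, p = 0.66) and 1421341_at with r = -0.82 (p = 0.039; rho = -0.89, p = 0.033). Without controls 2 and 3 the first of these was at -0.80 and the second at -0.93. Wnt3a had r = 0.31 (exact permutation p = 0.55; rho = 0.26, p = 0.66). Apcdd1 ranged from -0.10 to 0.81 over its 6 probe sets, none with a permutation p under 0.05. A replicate number holds 2 arrays and a group holds 3, too few for r within either.

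**Figure D4:**
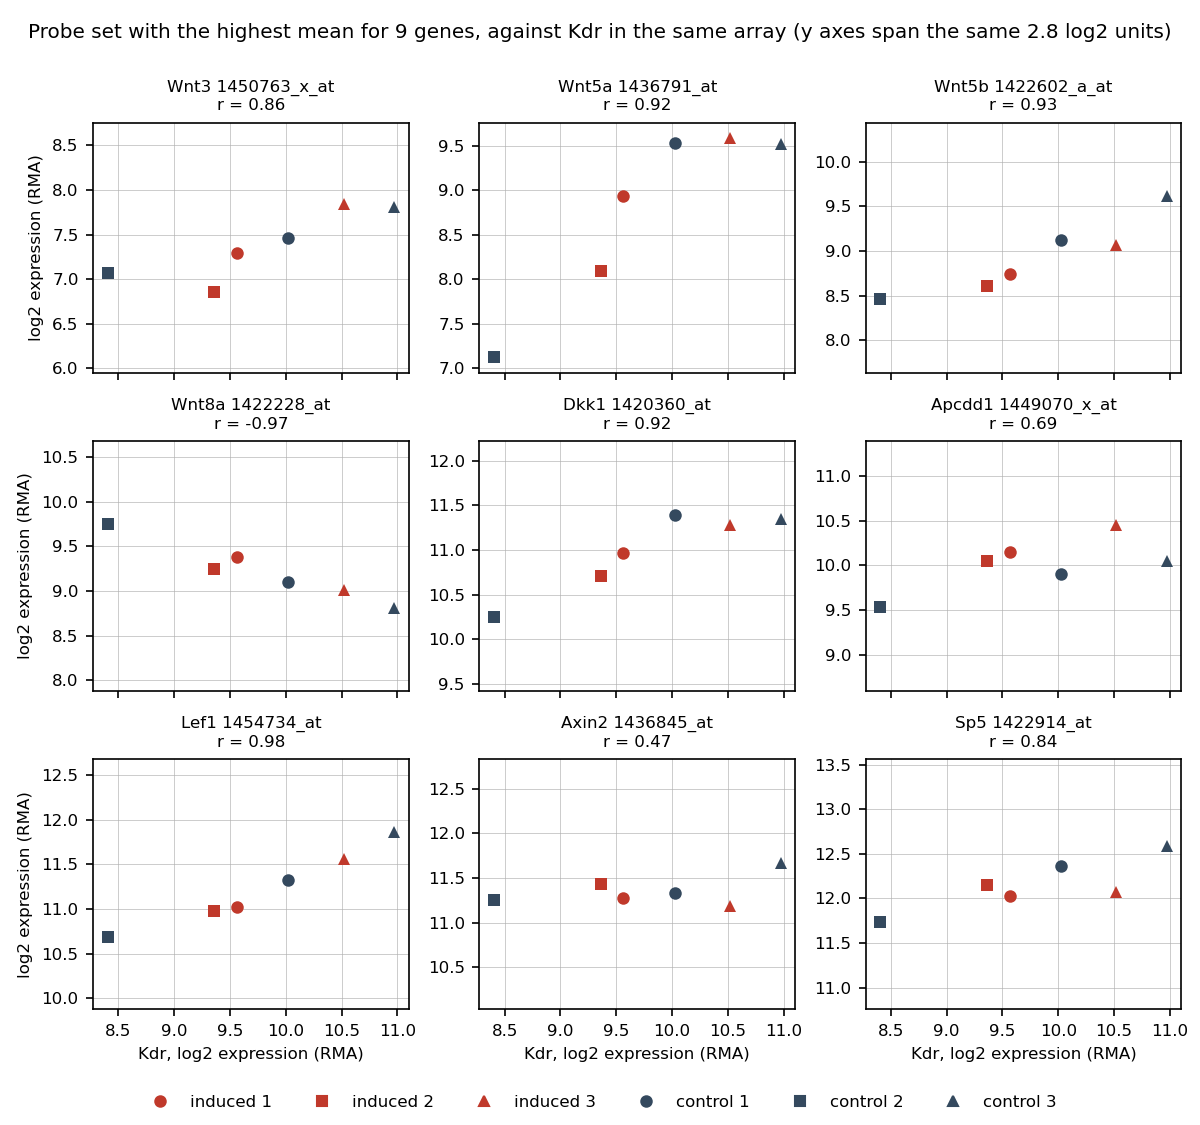
Level of the probe set with the highest mean for each of 9 genes (y axis, log2 expression) against Kdr in the same array (x axis, log2 expression), for 3 induced (red) and 3 control (dark) arrays. Wnt3, Wnt5a, Wnt5b, Dkk1 and Lef1 climb with Kdr from control 2 at 8.40 to control 3 at 10.97, Wnt8a descends, and Axin2 stays nearly level.

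A further limma fit, chosen once the values were known, took the Kdr level as a covariate. The log2 fold changes were nearly the same there and most intervals narrowed. Kdr averaged 9.82 in induced and 9.80 in control samples, so the covariate could hardly move the log2 fold changes. Their steadiness is therefore no test of the Kdr level. Lef1 1454734_at had a 95% interval of -0.30 to 0.08, against -0.79 to 0.58 in the plain comparison. Wnt5a 1436791_at had -0.49 to 0.74, against -1.41 to 1.69. Apcdd1 1449070_x_at had 0.39 ± 0.08 (SE) and Wnt5b 1422602_a_at -0.27 ± 0.08. None of the 22 passed limma's adjusted threshold there (smallest adjusted p = 0.996), while 4 had an unadjusted p under 0.05, 3 of them Apcdd1 probe sets and the other Wnt5b 1422602_a_at. The 3 of 22 higher compare with 1.36% of all probe sets in the same fit, and the 1 of 22 lower with 1.75%.

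Markers of cell state varied over the same arrays. The mean of 11 streak and early mesoderm markers, Kdr among them, was 10.55, 10.45 and 10.80 in induced samples 1, 2 and 3, against 10.90, 10.06 and 11.01 in control samples 1, 2 and 3. The mean of 10 pluripotency markers was 10.73, 10.70 and 10.51 in induced samples, against 10.44, 10.99 and 10.17 in control samples. Control 2 was thus lowest in mesoderm and highest in pluripotency markers, and control 3 the reverse. The other marker lists ranged less: 8 endothelial markers averaged 6.82 to 7.04 in induced and 6.69 to 6.84 in control samples, 8 blood markers 7.52 to 7.72 in induced and 7.40 to 7.59 in control samples, and 8 visceral endoderm markers 7.43 to 7.52 in induced and 7.15 to 7.53 in control samples. For 6 neuroectoderm markers the range was 7.67 to 7.86 in induced and 7.78 to 7.82 in control samples, and for 6 fibroblast markers 6.60 to 6.80 in induced and 6.65 to 6.73 in control samples. Of these 57 marker genes 0 passed limma's adjusted threshold and 3 had an unadjusted p under 0.05, against 1.51% of all probe sets. These 3 were Lmo2 (blood), Ecscr (endothelial) and Cubn (visceral endoderm), named after their values were seen. The log2 fold changes were 0.81 ± 0.12 (SE) for Lmo2, 0.36 ± 0.10 for Ecscr and 0.24 ± 0.10 for Cubn. For all 3, the induced samples lay above every control sample. The same held for Gata1 (blood) and Apoa1 (visceral endoderm), whose unadjusted p was not under 0.05. Of the 57 marker genes 0 had all induced samples below the controls. Over all probe sets 2.67% were non-overlapping with induced higher and 3.79% with induced lower. The part of the 57 marker genes in the members' variation was not tested.

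Elsewhere in the pathway no list held a gene past limma's adjusted threshold in either direction, each gene being read by its probe set with the highest mean. Of 14 other Wnt ligands 8 had positive and 6 negative log2 fold changes, with a median of 0.02. Wnt7b stood at 9.21 ± 0.18 in induced and 9.20 ± 0.13 in control samples (SD, n = 3 each), and Wnt7a at 8.83 ± 0.16 in induced and 8.73 ± 0.040 in control samples. Wnt2, chosen after its values were seen, had the widest range of these ligands, 2.51 log2 units, and r = 0.98 with Kdr as a description. Of 17 receptor and ligand secretion genes 9 were positive (median 0.03). For the Frizzled receptor genes, the log2 fold change was -0.28 ± 0.19 (SE) in Fzd7 and -0.11 ± 0.09 in Fzd3. The co-receptor genes Lrp5 and Lrp6, chosen after their values were seen, were the 2 of this list whose induced samples all lay below the controls, at -0.12 ± 0.08 for Lrp5 and -0.21 ± 0.10 for Lrp6. Over all probe sets 3.79% were non-overlapping with induced lower. Of the 17 genes 3 had r over 0.8 with Kdr and 5 had r under -0.8, Ror1 (-0.95), Fzd2 (-0.94) and Fzd5 (-0.92) among the 5, all chosen after their values were seen. Over all probe sets 5.09% had r over 0.8 and 6.68% had r under -0.8.

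Of 17 genes for beta-catenin, its destruction complex and TCF factors 4 were positive and 13 negative, with a median of -0.03. Ctnnb1, which encodes beta-catenin, stood at 13.89 ± 0.023 in induced and 13.91 ± 0.018 in control samples (SD, n = 3 each), a log2 fold change of -0.02 ± 0.07 (SE). Csnk1a1, a kinase that marks beta-catenin for destruction, had -0.02 ± 0.07. These 2 genes ranged over 0.064 and 0.095 log2 units across the arrays, where Wnt5a ranged over 2.45 and Lef1 over 1.18.

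Of 19 further antagonists 11 were positive and 8 negative, with a median of 0.01. For Frzb, a secreted Wnt-binding protein, the log2 fold change was -0.14 ± 0.38 (SE), with r = 0.98 with Kdr over the 6 arrays as a description. Znrf3, a ubiquitin ligase that removes Frizzled receptors, had 0.02 ± 0.14. Of 7 R-spondin and LGR genes, which strengthen Wnt signals, 5 were positive, with Lgr4 at 0.09 ± 0.13 and Rspo3 at 0.11 ± 0.22. Rspo1, chosen after its values were seen, had r = -0.98 with Kdr as a description. Lgr5, chosen after its values were seen, had 0.27 ± 0.09 with all induced samples above the controls and an unadjusted limma p of 0.017 (adjusted p = 0.9997). Of 13 other Wnt-responsive genes 6 were positive and 7 negative, with Cyp26a1, an enzyme that breaks down retinoic acid, at -0.09 ± 0.45 and the mesoderm factor gene Mesp1 at -0.26 ± 0.45. Cdx2, also chosen afterwards, was the gene of that list whose groups did not overlap, at 0.18 ± 0.08. Like Cdx2 and Lgr5, 2.67% of all probe sets were non-overlapping with induced higher.

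The genes most like Wnt3a and Axin2 were sought among 181 genes with an SD of at least 0.5 over the 6 arrays, by Pearson's r as a description. For Wnt3a these were Foxc1 (r = 0.58), Chst7 (0.52) and Hand2 (0.50), and for Axin2 1436845_at they were C130075A20Rik (0.69), Hand2 (0.65) and Snai1 (0.59). Both members had small SDs themselves, 0.18 and 0.17. For Wnt5a 1436791_at, chosen after its values were seen, the nearest were Zc3hav1 (r = 0.999), Rftn1 (0.992) and Klhl6 (0.990). For Wnt8a, chosen in the same way, they were Trap1a (0.996), Rpp25 (0.995) and Irs4 (0.994). The nearest genes of Wnt8a were all highest in control 2 and lowest in control 3, as Wnt8a was.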

How the data were processed

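RNA from Flk1-positive cells was labelled with biotin and read on 6 arrays, 3 per group by the sample titles. The deposited log2 expression values per probe set were made by the authors with RMA (per the submitters' processing notes). The method subtracts background and forces all arrays onto 1 distribution, which can compress differences of dim probe sets. No version of it was given in the labels, and detection calls were not used here. Array medians were 7.34 to 7.40, and 3 arrays per group limit the precision.

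Of 45101 probe sets, 34958 had 1 symbol, 932 several and 9211 no entry in the platform annotation. After 13 control probe sets were set aside, 34945 were tested with limma 3.58.1 in R 4.3.3 (lmFit, eBayes, two-sided, Benjamini-Hochberg over all of them, threshold 0.05), checked on simulated data. No filter was applied. No p adjusted over the members alone is given, although the design named that for the relation with Kdr. Permutation tests ran in Python 3.11.15. T, Tcf7, Kremen2, Tiki1 and Apcdd1l were not analysed here.

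The members and lists were chosen with earlier results of these data known. Named genes are every member, Etv2 and Kdr, and from each pathway list those past the threshold or else the 2 with the highest level, plus the 3 genes most like Wnt3a and Axin2.

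Same-numbered samples deviated together from their group means (r = 0.24, 0.18 and 0.27 for numbers 1, 2 and 3), each over the minimum of 0.1. The numbers were therefore treated as pairs in the replicate block and in the differences within numbers. The main fit did not pair them, and it gave the SEs and intervals printed unless another fit is named. Different numbers reached similar values, 0.22 for induced 1 with control 2 and 0.21 for induced 3 with control 1, so the pairing rests weakly on the data. A shared day or culture is not labelled. The alternatives were a replicate block, 1 probe set per gene, all probe sets, only those above the median level, quantile normalization again, median centring, array quality weights, and samples left out singly or by number.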

Additional observations from a re-analysis of the deposited data

How the results depend on the processing

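No member passed limma's adjusted threshold under any of the 17 alternatives, with no adjusted p below 0.964. The median log2 fold change of the members was -0.03 in the main fit. It ran from -0.25 without control 2 to 0.12 without control 3. Each move was less than the SD of the 3 pair medians (0.26). That SD includes pair 2, so it is not an independent limit for leaving out control 2. Over all probe sets 1 passed, and 1 with the replicate block, 0 after median centring, 2 with the Kdr level as a covariate, and 0 to 1 with samples left out. The replicate block ended or added no call, and gave 1041 probe sets at an unadjusted p under 0.05, against 526 without it. Of the 22 log2 fold changes 6 kept their sign in every alternative. Of these, 5 were of Apcdd1 (1449070_x_at 0.25 to 0.50, 1418382_at 0.18 to 0.57, 1454822_x_at 0.14 to 0.56, 1418383_at 0.093 to 0.44 and 1437604_x_at 0.085 to 0.27 with samples left out). The remaining one was Wnt5b 1439373_x_at, at -0.60 to -0.034 with samples left out. The other 16 changed sign in at least 1 alternative, as values near 0 can. With samples left out they ran as follows: Dkk1 1420360_at -0.39 to 0.20, Lef1 1421299_a_at -0.47 to 0.11, Axin2 1421341_at -0.11 to 0.33, Wnt3a 1422093_at -0.22 to 0.18, Wnt8a 1422228_at -0.21 to 0.26, Wnt5b 1422602_a_at -0.56 to 0.013, Sp5 1422914_at -0.42 to 0.040 and Wnt5a 1436791_at -0.66 to 0.54, then Axin2 1436845_at -0.27 to 0.061, Wnt5a 1437673_at -0.87 to 0.33, Apcdd1 1443639_at -0.10 to 0.059, Wnt5a 1448818_at -0.58 to 0.45, Wnt3 1450763_x_at -0.37 to 0.12, Lef1 1454734_at -0.41 to 0.18, Wnt5a 1456976_at -0.17 to 0.11 and Dkk1 1458232_at -0.51 to 0.23. Repeated quantile normalization gave Dkk1 1420360_at 0.042 and Wnt8a 0.023. Array quality weights gave Axin2 1421341_at -0.086, Wnt8a 0.011, Wnt3 0.060, Dkk1 1458232_at 0.077, Wnt5a 1437673_at 0.064 and Wnt5a 1456976_at 0.0099. The cause was not tested.

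For the relation with Kdr 0 members passed after adjustment in every setting run, and 18 of 22 kept their sign. With 1 sample left out r ran as follows: Wnt3a 1422093_at -0.13 to 0.49, Axin2 1436845_at -0.21 to 0.81 and Apcdd1 1437604_x_at -0.30 to 0.021. Without the 2 samples farthest in Kdr it was -0.0037 for Wnt3a, -0.80 for Axin2 1436845_at and -0.14 for Wnt5a 1456976_at, and 4 arrays allow no p below 0.083. A further Kdr probe set, meant as a check, was not analysed here. Signal over background could not be set here, which limits what dim probe sets can show.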
